A study of Homo sapiens with 2 samples.

Results

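Matricellular proteins and the enzymes and microfibrils that organise collagen and elastin are described here through 10 genes: TNC, THBS1, THBS2, SPARC, SPOCK1, POSTN, LOX, LOXL2, FBN1 and FBN2. They were chosen by name, as the rows of the deposited count table that carry these symbols, and all 10 were found among its 60649 rows. RNA pulled down with an MT1-MMP antibody (MT1-MMP RIP) was set against RNA from a mock pull-down with rabbit IgG (IgG RIP).

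Matricellular proteins are secreted into the matrix without forming its fibres, and they change how cells attach to it. Tenascin-C (TNC), the thrombospondins (THBS1, THBS2), osteonectin (SPARC), testican-1 (SPOCK1) and periostin (POSTN) are of this kind. Lysyl oxidase (LOX) and its relative LOXL2 are copper-dependent amine oxidases that start the covalent crosslinking of collagen and elastin, and the fibrillins FBN1 and FBN2 build the microfibrils on which elastic fibres form. MT1-MMP, encoded by MMP14, is a membrane-anchored collagenase that cuts the same matrix at the cell surface.

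RNA immunoprecipitation (RIP) recovers RNA that stays with a protein when an antibody pulls it down. Both libraries were made from wild-type MDA-231 cells, an established human breast cancer line, which had been kept for 16 h without serum with the P4G11 antibody to beta-1 integrin. The protocol also lists an E7-s antibody without stating its purpose. The title of the specific library writes MMP1 and the mock library's cell line tag reads MDA-232; the series' design, which names MT1-MMP and MDA-231, was followed for both. No untreated cells and no input RNA were analysed here, and each kind of pull-down has 1 library, so no difference below has a replicate check.

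The MT1-MMP RIP library held 31636000 counts and the IgG RIP library 13003668. A ribosomal DNA block of 28 rows took 10.2% of the first and 92.6% of the second, which leaves 28401567 and 962952 counts for all other rows. A raw ratio of 45.9 MT1-MMP RIP counts to 1 IgG RIP count was set as a scaled ratio of 1 by trimmed mean of M-values (TMM). The totals outside the block alone would put it at 29.5. Ratios below are on the TMM scale unless plain CPM (counts scaled to the total of each library) or another scale is named. By plain CPM every log2 ratio lies 4.24 higher, and by totals outside the block 0.64 higher. A gene was called higher in a library where the whole exact 95% interval of its ratio lay beyond 2-fold. All intervals cover counting error only, since they leave out the variation between pull-downs and treat reads as independent molecules. Of 14318 tested protein-coding rows, 7.24% were called higher in the MT1-MMP RIP and 16.2% in the IgG RIP; over all 25933 tested rows the shares were 5.9% and 12.8%. MMP14 itself had 367 and 134 counts and a log2 ratio of -4.07 (-4.36 to -3.77), which is 0.17 (-0.12 to 0.47) by plain CPM. ITGB1, which encodes beta-1 integrin, had 8940 and 269 counts and a log2 ratio of -0.47 (-0.64 to -0.29). All 7 markers listed for this cell line, among them VIM and CD44, had at least 20 counts in each library. So did, in the MT1-MMP RIP, 4 of 5 genes listed as low or absent in the line (ESR1 with 369 counts, GATA3 with 159, PGR with 64 and EPCAM with 46), which had 3 counts or fewer each in the IgG RIP; CDH1 had 17 and 0. Of 8 fibroblast markers, 4 had at least 20 counts in the MT1-MMP RIP, and 0 did in the IgG RIP. The 4 were ACTA2 (1038 and 10 counts), PDGFRB (92 and 3), PDGFRA (74 and 1) and COL1A1 (24 and 12). COL1A2 and COL3A1 were at 0 in both libraries, and LUM and DCN had 1 count each in the MT1-MMP RIP. The fibroblast list summed to 1230 counts in the MT1-MMP RIP and 26 in the IgG RIP. Endothelial markers (5 genes) summed to 4071 and 29 counts, 143 and 30.1 CPM of the counts outside the ribosomal DNA block, and were mostly PECAM1 with 3414 and 24. All 5 had at least 20 counts in the MT1-MMP RIP, and 1 did in the IgG RIP. Immune markers (5 genes) summed to 152 and 47 counts, 5.35 and 48.8 CPM outside the block, of which CSF1R held 96 and 46. By plain CPM the immune list was at 4.80 and 3.61. Of its 5 genes, 2 had at least 20 counts in the MT1-MMP RIP and 1 in the IgG RIP. The part of these other markers in the results below was not tested.

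The 10 genes did not behave as a block. TNC and SPOCK1 were called higher in the MT1-MMP RIP, THBS1 and LOX were called higher in the IgG RIP, and LOXL2, FBN1, FBN2 and THBS2 were called in neither direction. SPARC and POSTN had 3 counts in all and stayed under the minimum of 20 summed counts. The calls thus stand at 2 and 2 of 8 tested genes, beside 7.24% and 16.2% of tested protein-coding rows. The median log2 ratio of the 8 was 0.21 (lowest -3.74, highest 2.22), beside 0.05 for tested protein-coding rows and 0.17 for all tested rows. By plain CPM 6 of the 8 were called higher in the MT1-MMP RIP and 0 in the IgG RIP, where 86.1% and 0.691% of protein-coding rows were. By totals outside the ribosomal DNA block the numbers were 2 and 1, beside 17.8% and 11.2% of protein-coding rows.

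**Figure D1:**
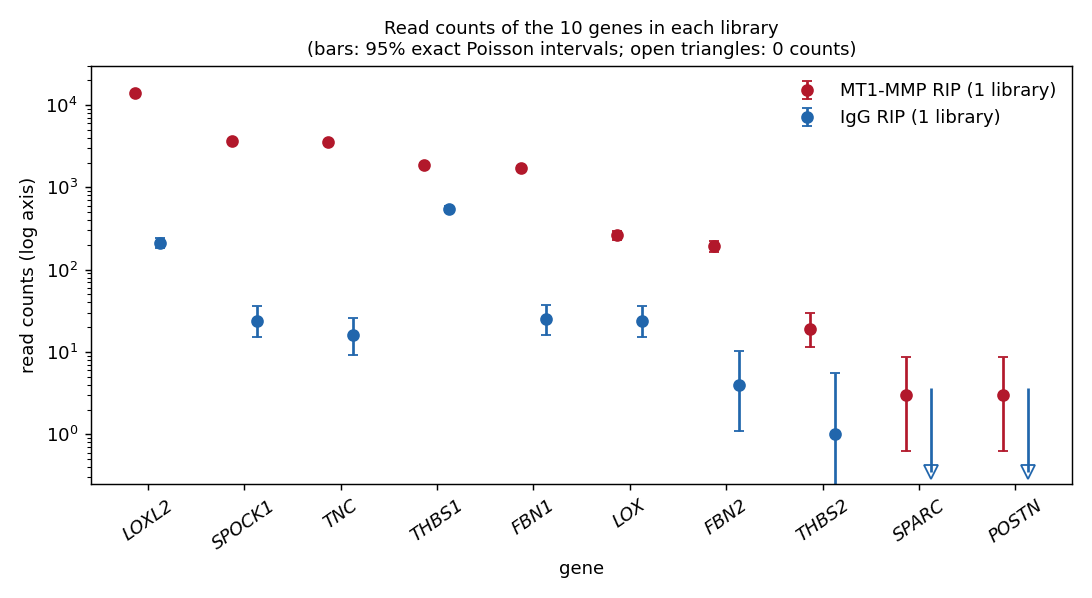
Read counts (log axis) of each gene in the MT1-MMP RIP library (red) and the IgG RIP library (blue), 1 library each, with central 95% exact Poisson intervals; open triangles mark 0 counts. THBS1 has the most IgG RIP counts, 549, although 3 other genes have more counts than it in the MT1-MMP RIP.

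TNC encodes tenascin-C, a large glycoprotein that loosens cell attachment to fibronectin and is abundant at tumour margins. It spans 98.6 kb on the minus strand of chromosome 9 (GRCh38, 115019575 to 115118157). The MT1-MMP RIP held 3537 TNC counts (112 CPM) and the IgG RIP 16 (1.23 CPM). TNC thus had about as many MT1-MMP RIP counts as SPOCK1, but it stood highest of the 8 tested genes in ratio. Its scaled ratio was 4.82-fold (95% interval 2.96 to 8.43), a log2 ratio of 2.22 (1.57 to 3.08), and its log2 ratio by plain CPM was 6.46. No row of the table with a RefSeq position overlapped TNC; such rows were found for 3 of the 10 genes (THBS1, LOX and SPARC). The next row of the table, RP11-523L1.2, held 873 and 7 counts, equal to 24.7% and 43.8% of those of TNC; it has no RefSeq match, so its overlap with TNC could not be checked.

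THBS1 encodes thrombospondin-1, a ligand of CD47 and CD36 that can activate latent TGF-beta. Its span is 18.4 kb on the plus strand of chromosome 15 (39581079 to 39599466). The MT1-MMP RIP held 1883 THBS1 counts (59.5 CPM) and the IgG RIP 549 (42.2 CPM), by far the most IgG RIP counts of the 10 genes. On the TMM scale THBS1 was 13.4-fold higher in the IgG RIP (12.1 to 14.7), a log2 ratio of -3.74 (-3.88 to -3.60). By plain CPM the direction turned, with a log2 ratio of 0.49 (0.36 to 0.64) that lay within 2-fold. By totals outside the ribosomal DNA block it was -3.11 (-3.24 to -2.96), again called higher in the IgG RIP.

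The counts of THBS1 cannot be separated from those of FSIP1, a gene on the opposite strand whose end covers the last 2.03 kb of the THBS1 span. FSIP1 spans 185 kb and its row held 1813 and 391 counts, equal to 96.3% and 71.2% of those of THBS1. Its log2 ratio was -3.31 (-3.47 to -3.15). The short row THBS1-IT1 inside THBS1 held 40 and 8 counts. If all counts of both rows were taken from THBS1, 30 MT1-MMP RIP counts and 150 IgG RIP counts would be left, a log2 ratio of -7.82. Under the full and the reduced count alike, THBS1 was called higher in the IgG RIP on the TMM scale.

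THBS2 encodes thrombospondin-2, a related protein that restrains blood vessel growth. It spans 38.1 kb on chromosome 6 (169215785 to 169253846, minus strand). It had 19 counts in the MT1-MMP RIP and 1 in the IgG RIP, exactly the minimum for a test. The row before THBS2, XXyac-YX65C7_A.2, held 21 and 1 counts. That row has no RefSeq match, so its overlap with THBS2 could not be checked. The THBS2 ratio of 0.414 had an interval from 0.0658 to 17.2, so no direction was detectable at this depth.

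SPARC encodes osteonectin, which binds collagen and guides its deposition, and POSTN encodes periostin, a collagen-binding protein made chiefly by fibroblasts. SPARC (chromosome 5, 151661096 to 151686915) and POSTN (chromosome 13, 37562585 to 37598768) each had 3 counts in the MT1-MMP RIP and 0 in the IgG RIP. The 3 counts amount to 0.0948 CPM, while a count of 0 in the IgG RIP allows up to 3 counts (a one-sided limit), or 0.231 CPM. The levels of both genes were thus below what these libraries can compare, and no ratio is given. The row CLMAT3, which overlaps SPARC on the opposite strand, had 73 and 1 counts.

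SPOCK1 encodes testican-1, a secreted proteoglycan with a calcium-binding domain related to that of SPARC. It is the longest of the 10 genes, spanning 524 kb of chromosome 5 (136975298 to 137499326). The MT1-MMP RIP held 3608 SPOCK1 counts (114 CPM) and the IgG RIP 24 (1.85 CPM). The scaled ratio was 3.27-fold (2.20 to 5.12), a log2 ratio of 1.68 (1.14 to 2.36), or 5.92 by plain CPM. The lower bound lies just beyond 2-fold: at 24 IgG RIP counts, 3285 MT1-MMP RIP counts were needed for the call. With the TMM factors taken from rows with at least 100 summed counts the log2 ratio was 1.26 and the call was lost.

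LOX encodes lysyl oxidase, the enzyme that oxidises lysines of collagen and elastin so that they crosslink. Its span is 15.1 kb on the minus strand of chromosome 5 (122063195 to 122078259), the shortest of the 10. LOX had 261 counts in the MT1-MMP RIP (8.25 CPM) and 24 in the IgG RIP (1.85 CPM). LOX and SPOCK1 therefore had equal IgG RIP counts, while their MT1-MMP RIP counts were far apart. On the TMM scale LOX was 4.22-fold higher in the IgG RIP (2.66 to 6.42), a log2 ratio of -2.10 (-2.68 to -1.41). By totals outside the ribosomal DNA block it was -1.47 (-2.04 to -0.77) and no longer called, and by plain CPM it turned to 2.13 (1.56 to 2.83), called higher in the MT1-MMP RIP. The whole of LOX lies inside SRFBP1, a 117 kb gene on the opposite strand with 2467 and 49 counts and a log2 ratio of 0.12 (-0.27 to 0.57). How many of the LOX counts are SRFBP1 reads cannot be told from the table. CTC-441N14.2, the row after LOX in the table, held 231 and 4 counts; it has no RefSeq match, and its overlap with LOX could not be checked.

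LOXL2 encodes a lysyl oxidase family enzyme that acts on basement membrane collagen and is associated with invasive breast cancer. It spans 107 kb of chromosome 8 (23296897 to 23404120). The MT1-MMP RIP held 13889 LOXL2 counts (439 CPM) and the IgG RIP 209 (16.1 CPM). LOXL2 had the most MT1-MMP RIP counts of the 10 genes, but its scaled ratio was 1.45-fold (1.26 to 1.67), a log2 ratio of 0.53 (0.34 to 0.74). On this scale its interval lies above the typical row and inside 2-fold. By totals outside the ribosomal DNA block it was 1.17 (0.97 to 1.38), which reaches past 2-fold without a call, and with the TMM factors from rows with at least 100 summed counts it was 0.11. By plain CPM its log2 ratio was 4.77. The next row of the table, RP11-177H13.2, held 3415 and 35 counts; it has no RefSeq match, so its overlap with LOXL2 could not be checked.

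FBN1 encodes fibrillin-1, the main microfibril protein of adult tissue. Its span is 237 kb on chromosome 15 (48408313 to 48645709, minus strand). The MT1-MMP RIP held 1713 FBN1 counts (54.1 CPM) and the IgG RIP 25 (1.92 CPM). The log2 ratio was 0.55 (0.01 to 1.21), close to that of LOXL2 but with a wider interval that reaches past 2-fold.

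FBN2 encodes fibrillin-2, the form used mostly during development. It spans 280 kb of chromosome 5 (128257909 to 128538245, minus strand). FBN2 had 191 counts in the MT1-MMP RIP and 4 in the IgG RIP, far fewer than FBN1 over a longer span. The log2 ratio, with 0.5 counts added to each library, was -0.11. Without added counts the scaled ratio was 1.04-fold. Its interval, -1.32 to 1.95 on the log2 scale, allows a difference of more than 2-fold either way.

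**Figure D2:**
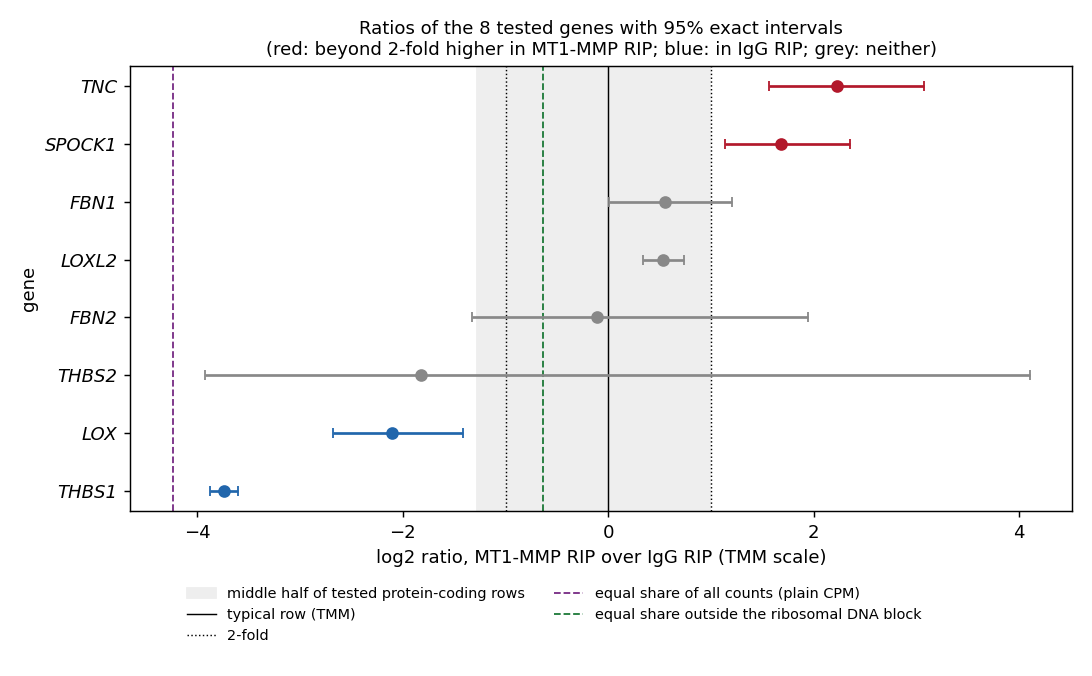
Log2 ratio of MT1-MMP RIP over IgG RIP for the 8 tested genes on the TMM scale, with 95% exact intervals, 1 library each; dashed lines mark equal levels by plain CPM (purple) and by counts outside the ribosomal DNA block (green). TNC (2.22) and SPOCK1 (1.68) lie beyond 2-fold on the right, LOX (-2.10) and THBS1 (-3.74) on the left, and all 8 points lie right of the plain CPM line.

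A ratio of ratios between 2 genes does not depend on how the libraries are scaled, and the 4 pairs of related proteins were compared in this way. LOXL2 and LOX differed as counted: the MT1-MMP RIP to IgG RIP odds were 6.11 times higher for LOXL2 (exact conditional 95% interval 3.76 to 9.54). LOX lies wholly inside SRFBP1, so this ratio rests on LOX counts that cannot be told from SRFBP1 reads. LOXL2 and LOX also fall in different deciles of tested protein-coding rows by span, with median log2 ratios of 0.72 and -0.98. The part of overlap and span in this ratio was not tested. FBN1 and FBN2 did not differ beyond counting error (1.43, 0.359 to 4.22), an interval that also allows a 4.22-fold difference. THBS2 against THBS1 gave 5.54 (0.876 to 231), a ratio that rests on 1 IgG RIP count of THBS2. With the counts of overlapping rows taken off THBS1 the ratio was 92.2 (13.7 to 3972), so whether these genes are separated depends on the FSIP1 counts. SPOCK1 against SPARC gave no ratio, since SPARC had 0 IgG RIP counts, and the interval ran from 0 to 375. TNC against THBS1, a pair picked after their values were seen as the highest and lowest of the 8, gave 64.4 (39.2 to 114).

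In order of ratio the 8 genes ran TNC, SPOCK1, FBN1, LOXL2, FBN2, THBS2, LOX, THBS1. Between neighbours, SPOCK1 stood above FBN1 (2.19, 1.20 to 4.02) and LOX above THBS1 (3.17, 2.06 to 5.09) beyond counting error. The neighbours were formed by sorting on the same values, so the direction of each pair was fixed beforehand. The LOX and THBS1 counts also cannot be told from those of SRFBP1 and FSIP1. TNC and SPOCK1 were not separable (1.47, 0.748 to 2.97), and neither were FBN1 and LOXL2, LOXL2 and FBN2, FBN2 and THBS2, or THBS2 and LOX.

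As a sum the 10 genes took nearly the same share of both libraries once the ribosomal DNA block was left out: 884.0 CPM of the counts outside it in the MT1-MMP RIP and 884.8 CPM in the IgG RIP. Over all counts the sums were 794 CPM (784 to 803) and 65.5 CPM (61.2 to 70.1), from 25107 and 852 counts. The make-up behind the equal sum was not the same. LOXL2 held 55.3% of the 10 genes' counts in the MT1-MMP RIP (54.7 to 55.9) and 24.5% in the IgG RIP (21.7 to 27.6). THBS1 held 7.50% in the MT1-MMP RIP (7.18 to 7.83) and 64.4% in the IgG RIP (61.1 to 67.7). TNC held 14.1% in the MT1-MMP RIP and 1.88% in the IgG RIP, and SPOCK1 14.4% and 2.82%, while LOX held 1.04% of the counts in the MT1-MMP RIP and 2.82% in the IgG RIP. Because these shares add up to the whole, a high share of THBS1 lowers the others, and any counts that THBS1 shares with FSIP1 enter them too. They also enter the equal sum: with the rows overlapping THBS1 taken off it, the 10 genes would hold 23254 and 453 counts, 819 and 470 CPM of the counts outside the block.

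**Figure D3:**
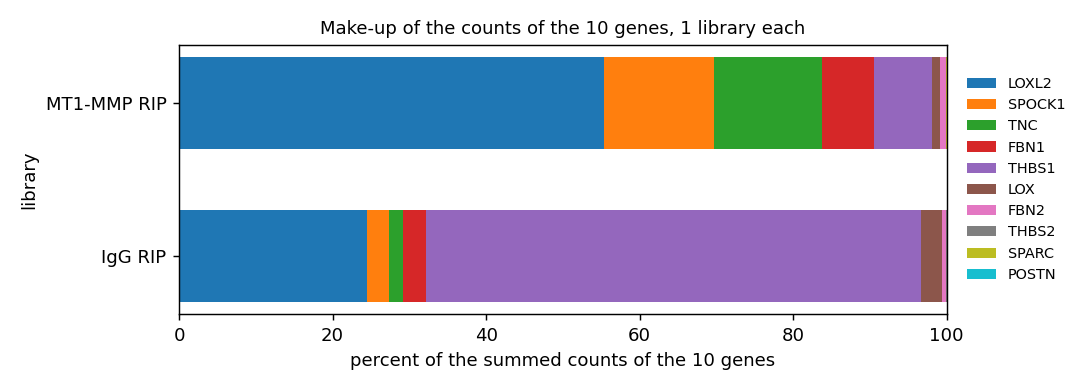
Percent of the summed counts of the 10 genes that each gene holds in the MT1-MMP RIP (25107 counts) and in the IgG RIP (852 counts), 1 library each. LOXL2 fills 55.3% of the upper bar and THBS1 64.4% of the lower.

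Levels were compared between genes as counts per kb of gene span, introns included. Whether reads in introns were counted is not stated. The order below may thus depend on intron length, which was not tested. In the MT1-MMP RIP, LOXL2 was highest with 130 counts per kb (127 to 132), followed by THBS1 with 102, TNC with 35.9 and LOX with 17.3. FBN1 with 7.22 and SPOCK1 with 6.89 did not differ beyond counting error, and FBN2 (0.681) did not differ so from THBS2 (0.499). The median tested protein-coding row had 13.7 counts per kb in this library (quartiles 4.98 and 27.9). In the extreme case that all counts of overlapping rows are taken off, THBS1 would be at 1.63 counts per kb, below the lower quartile. For LOX this cannot be done, since SRFBP1 held more counts than LOX in both libraries. How many counts THBS1 and LOX share with FSIP1 and SRFBP1 cannot be told, so their places in this order are uncertain. As counted, LOXL2, THBS1 and TNC lay above the upper quartile and LOX between median and upper quartile. FBN1 and SPOCK1 lay between its lower quartile and median, and the other 4 genes below the lower quartile. TNC and SPOCK1, the genes called higher in the MT1-MMP RIP, were therefore on different sides of the middle in counts per kb. In counts not divided by span they had 3537 and 3608. Both lay above the median MT1-MMP RIP counts of tested protein-coding rows in their deciles by span, 1326 and 2348.

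In the IgG RIP, THBS1 was highest with 29.9 counts per kb (27.4 to 32.5), against a median of 0.326 for tested protein-coding rows (quartiles 0.0803 and 0.912). LOXL2 followed with 1.95 and LOX with 1.59, which did not differ beyond counting error. TNC had 0.162 and FBN1 0.105, also not separable, and SPOCK1 had 0.0458. THBS2 and FBN2 rested on 1 and 4 counts. THBS1 was 15.3 times LOXL2 in this library (13.04 to 18.05), whereas in the MT1-MMP RIP LOXL2 was 1.26 times THBS1 (1.21 to 1.33). Without the counts of overlapping rows THBS1 would have 8.16 counts per kb in the IgG RIP, still the highest of the 10 genes there.

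Ratios over all protein-coding rows run with gene span, so each gene was set beside the decile of tested protein-coding rows by span that it falls in. TNC (96.3% of the rows in its decile had a lower ratio) was 1.51 above the median of its decile on the log2 scale, and 8.03% of the rows in that decile were called higher in the MT1-MMP RIP. LOXL2 shares this decile and was 0.19 below its median of 0.72. SPOCK1 was 0.21 above the median of the decile with the longest spans, 1.47, where 39.1% of rows were called higher in the MT1-MMP RIP. A call such as that of SPOCK1 is therefore common among genes of its span. FBN1 and FBN2 are in the same decile, and their log2 ratios minus its median were -0.92 and -1.58.

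Among the shorter genes, THBS1 was farthest from genes of like span: its log2 ratio minus the median of its decile was -3.30, and 1.33% of the rows in that decile had a lower ratio. In that decile 15.4% of rows were called higher in the IgG RIP. LOX minus the median of its decile was -1.12, and 24.8% of rows there were called higher in the IgG RIP. THBS2, on 20 summed counts, was at -1.87, from a log2 ratio of -1.82 with 0.5 counts added to each library. Without added counts its scaled ratio was 0.414. SPARC and POSTN have spans of 25.8 kb and 36.2 kb, which fall in deciles with medians of 296 and 458 MT1-MMP RIP counts among tested rows, against their 3.

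**Figure D4:**
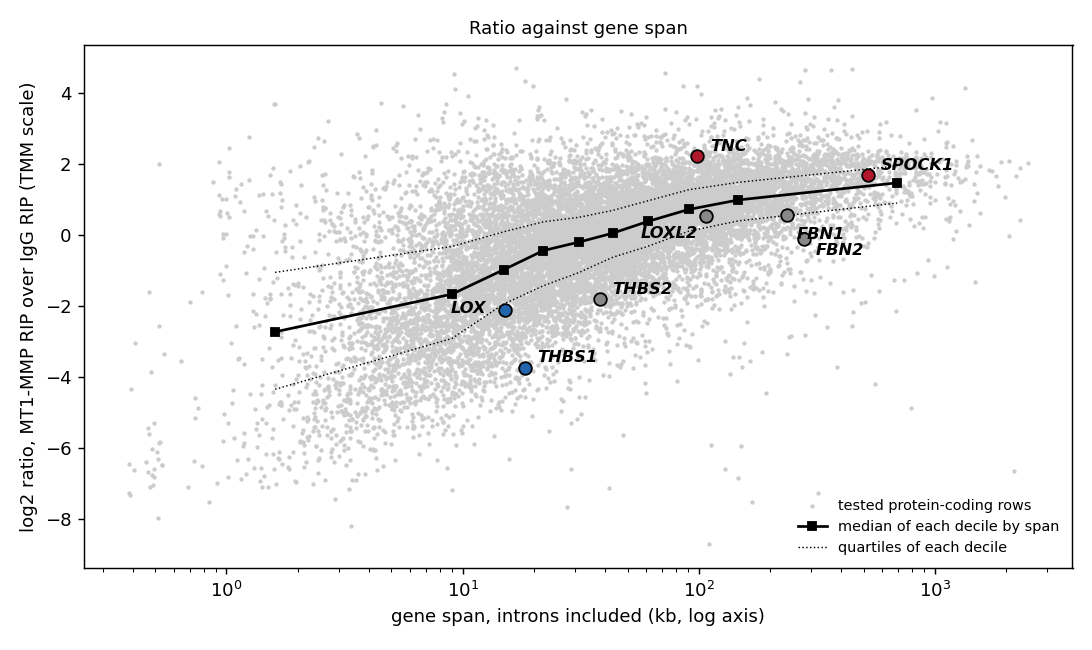
Log2 ratio of MT1-MMP RIP over IgG RIP (TMM scale) against gene span in kb (log axis) for 14318 tested protein-coding rows (grey), with the median and quartiles of each decile by span (black) and the 8 tested genes. TNC lies above the upper quartile of its decile and THBS1 far below the lower quartile of its own.

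The small IgG RIP counts limited which genes could be called. A gene at 0 IgG RIP counts needed 341 MT1-MMP RIP counts to be called higher there, a number that SPARC and POSTN did not approach. At its 4 IgG RIP counts FBN2 would have needed 944 MT1-MMP RIP counts and had 191, and FBN1 would have needed 3395 and had 1713. The scaled ratios of FBN2 and FBN1, 1.04 and 1.49, lay within 2-fold, so more reads at the same ratios would not have called them. LOXL2, with 209 IgG RIP counts, had its whole interval inside 2-fold. In the other direction a few counts suffice: at 261 MT1-MMP RIP counts LOX needed 20 IgG RIP counts to be called higher in the IgG RIP and had 24, and THBS1 needed 102 and had 549.

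Relatives and partners of these genes were counted in 4 further lists, on the TMM scale unless stated. Their calls were not matched for span and stand beside shares over all tested protein-coding rows. Those shares run with span. From the decile with the shortest spans to that with the longest, they went from 0.349% to 39.1% in the MT1-MMP RIP. In the IgG RIP they went from 55.5% to 1.40%. Of 20 other matricellular genes, 16 were tested, and 0 were called higher in the MT1-MMP RIP and 4 in the IgG RIP, beside 7.24% and 16.2% of protein-coding rows. The median log2 ratio was -0.66, or -0.86 with the gene at 0 IgG RIP counts set to a floor of 3. The 4 were CCN1 (189 and 131 counts), CCN2 (35 and 36), TGFBI (206 and 18) and SMOC1 (96 and 27), which are named because they are the whole count. CCN1 and CCN2 span 3.19 and 3.20 kb, in the decile where 55.5% of rows were called higher in the IgG RIP. TGFBI (34.8 kb) and SMOC1 (153 kb) fall in deciles where 12.8% and 1.89% were. The members with most counts were FSTL1, a secreted glycoprotein with a SPARC-like domain (1704 and 39 counts, log2 ratio -0.09, -0.53 to 0.43), THBS4, another thrombospondin (591 and 5, 1.23, 0.13 to 2.99), and SPOCK3, another testican (533 and 4, 1.37, 0.17 to 3.42). By plain CPM 12 of the 16 were called higher in the MT1-MMP RIP, beside 86.1% of protein-coding rows, and 0 in the IgG RIP. By totals outside the ribosomal DNA block the numbers were 1 and 3, beside 17.8% and 11.2% of protein-coding rows.

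Of 25 other collagen-modifying and crosslinking enzymes, 23 were tested, 2 were called higher in the MT1-MMP RIP and 7 in the IgG RIP, beside 7.24% and 16.2% of protein-coding rows, with a median log2 ratio of -0.83. The members with most counts were lysyl hydroxylase PLOD2 (10215 and 68 counts, log2 ratio 1.70, 1.37 to 2.08), the prolyl hydroxylase subunit P4HA1 (5345 and 55, 1.07, 0.70 to 1.49) and prolyl 3-hydroxylase P3H2 (2025 and 13, 1.71, 0.99 to 2.67). PLOD2 was called and the other pair was not. The second call was TLL2 (1835 and 8 counts, 2.23, 1.34 to 3.53), a metalloprotease related to BMP1, named because it completes the count. The 7 in the IgG RIP, named for the same reason, ranged in log2 ratio from -3.70 for the lysyl hydroxylase PLOD3 (40 and 11 counts) to -2.37 for the prolyl 3-hydroxylase P3H1 (200 and 22). Between them were its partners CRTAP (-2.67) and PPIB (-3.53), the prolyl hydroxylase subunit P4HB (-2.60), the collagen chaperone SERPINH1 (-2.45) and the transglutaminase TGM2 (-3.02). By plain CPM 19 of the 23 were called higher in the MT1-MMP RIP, where 86.1% of protein-coding rows were, and 0 in the IgG RIP. By totals outside the ribosomal DNA block the numbers were 4 and 6, beside 17.8% and 11.2% of protein-coding rows.

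Of 18 other microfibril and elastic fibre genes, 15 were tested, 0 were called higher in the MT1-MMP RIP and 2 in the IgG RIP, beside 7.24% and 16.2% of protein-coding rows. The median log2 ratio was -0.31, or -0.74 with the genes at 0 IgG RIP counts set to the floor. The members with most counts were the latent TGF-beta binding proteins LTBP1 (3774 and 43 counts, 0.92, 0.50 to 1.40) and LTBP2 (1326 and 23, 0.30, -0.26 to 0.99) and fibulin-7, FBLN7 (535 and 4, 1.37, 0.18 to 3.42). The calls were LTBP3 (166 and 15 counts, -2.10) and LTBP4 (434 and 33, -1.82), named because they are the whole count. Both calls were lost by totals outside the ribosomal DNA block. That scale gave 1 call in the MT1-MMP RIP and 0 in the IgG RIP, beside 17.8% and 11.2% of protein-coding rows. By plain CPM 13 of the 15 were called higher in the MT1-MMP RIP, beside 86.1% of protein-coding rows, and 0 in the IgG RIP.

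Of 12 receptors of matricellular proteins, 11 were tested, 1 was called higher in the MT1-MMP RIP and 1 in the IgG RIP, beside 7.24% and 16.2% of protein-coding rows. The median log2 ratio was 0.15, or -0.20 with the gene at 0 IgG RIP counts set to the floor. EGFR, which binds repeats of TNC with low affinity, had the most counts (47868 and 391, log2 ratio 1.41, 1.27 to 1.56) and was the gene called higher in the MT1-MMP RIP. ITGB1 followed, and then the integrin subunit ITGB5 (4384 and 44, 1.10, 0.69 to 1.58), which was not called. LRP1, an endocytic receptor of thrombospondins, was the gene called higher in the IgG RIP (545 and 57 counts, -2.27, -2.66 to -1.84). By plain CPM all 11 tested receptors were called higher in the MT1-MMP RIP, beside 86.1% of protein-coding rows. By totals outside the ribosomal DNA block 2 were, with 1 in the IgG RIP, beside 17.8% and 11.2% of protein-coding rows.

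**Figure D5:**
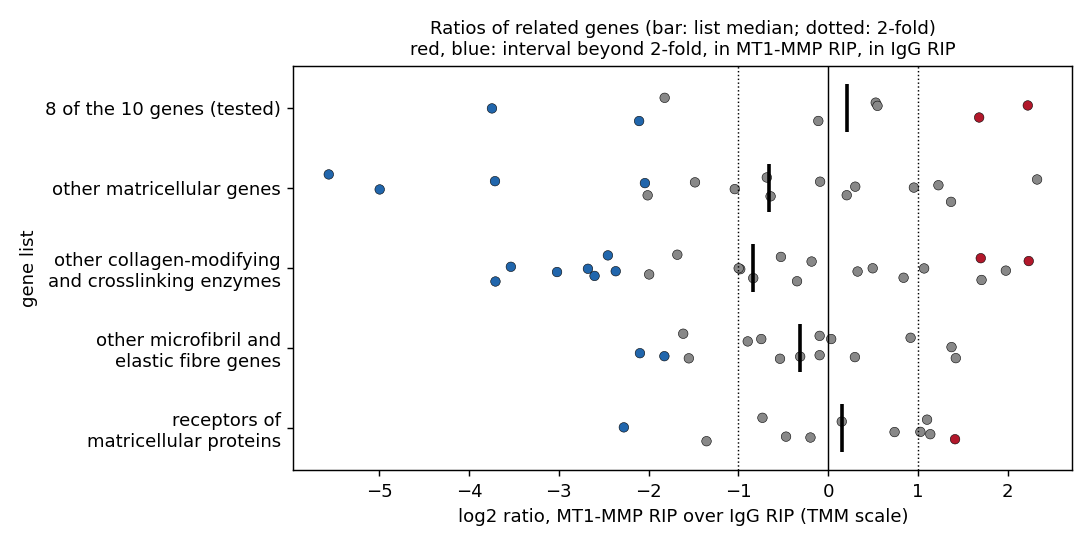
Log2 ratio of MT1-MMP RIP over IgG RIP (TMM scale, 1 library each) for the 8 tested genes and for the tested genes of 4 related lists; each point is a gene, and the black bar is the list's median. The tested genes spread from -3.74 to 2.22, and the medians of the 4 lists lie between -0.83 and 0.15.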

How the data were processed

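The deposited table gives whole-number read counts per gene row in 1 column per library. The submitters' processing notes name cutadapt, HISAT2, SAMtools and the build hg38. Which tool counted the reads, with which annotation and whether by strand, is not stated, so reads of overlapping genes cannot be told apart. Rows repeating a name and its counts (959) were left out of comparisons, not of totals. Spans and positions come from RefSeq, GRCh38.p14, which matched 38989 rows and all 10 genes. Ratios were scaled by TMM (edgeR 4.0.16) over rows with at least 20 summed counts. Intervals are exact (Clopper-Pearson, conditional on the summed count, SciPy 1.17.1) and take no added counts. Log2 ratios add 0.5 counts to each library, which moves genes with few IgG RIP counts towards the IgG RIP. The calculation was tested on simulated data. With 1 library per group no p-value was computed. Alternatives were other scalings (DESeq2 1.42.0 size factors among them), minimum counts, added counts, folds and the removal of overlapping rows. Genes named from the related lists are the 3 with most counts, except where stated. The 10 genes and all lists were chosen with earlier results of these data known.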

Additional observations from a re-analysis of the deposited data

How the results depend on the processing

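The scale between the libraries decided most. By plain CPM the tested genes called higher in the MT1-MMP RIP rose from 2 to 6 of 8, those in the IgG RIP fell from 2 to 0, the median log2 ratio moved from 0.21 to 4.45, and the log2 ratios of THBS1 and LOX turned positive, to 0.49 and 2.13. By totals without the ribosomal DNA block, calls in the IgG RIP fell to 1 (LOX was lost). They also fell to 1 with an interval required beyond 4-fold (THBS1 was kept). They stood at 1 without the counts of overlapping rows too, but there the loss of LOX was fixed beforehand. SRFBP1 held more counts than LOX in both libraries (2467 and 49 against 261 and 24), so LOX could not be tested. Calls in the MT1-MMP RIP fell to 1 with a minimum of 100 summed counts (TNC was kept) and to 0 beyond 4-fold. Of the 29 values of these counts and the median under all alternatives, the other 21 moved by less than 1.5 times or stayed inside the range of the tested genes. A median lies inside the range of its own genes on the same scale, so the second condition says little about the median. The median changed sign to -0.60 with a minimum of 1 summed count, there over all 10 genes, SPARC and POSTN included. With 2 and 5 counts added it was -0.02 and -0.38. Apart from plain CPM and the removal of overlapping rows, THBS1 ranged from -4.16 to -3.11, LOX from -2.52 to -1.47, SPOCK1 from 1.26 to 2.32, TNC from 1.81 to 2.86, LOXL2 from 0.11 to 1.17, FBN1 from 0.13 to 1.19, THBS2 from -3.52 to -1.18 and FBN2 from -1.08 to 0.53, changing sign. The odds ratio of THBS2 over THBS1 was 92.2 without the counts of overlapping rows, against 5.54. The IgG RIP counts, 25 or fewer for all but THBS1 and LOXL2, limit every other ratio. No paired analysis was possible because each group has 1 library, and for the same reason no library could be left out.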
